A study of Mus musculus with 6 samples.

Results

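The 10 genes described here are the nitric oxide synthases and the genes that set nitric oxide and cyclic GMP (cGMP) signaling around them. They were taken by name as *Nos1*, *Nos2*, *Nos3*, *Nostrin*, *Cav1*, *Ddah1*, *Ddah2*, *Gch1*, *Prkg1* and *Pde5a*. All 10 were among the 28777 genes in the count table and among the 28157 that passed the filter of more than 5 reads summed over all libraries. A further 50 genes of the same pathway were examined by role.

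The data were bulk RNA-seq counts from the mouse cardiac outflow tract (OFT), the embryonic vessel that leaves the heart and later forms the aorta, pulmonary artery and their valves, collected at the embryonic stage E13.5. The study set 3 libraries labelled mutant, from *Notch1*+/-; *Nos3*-/- compound mutants, beside 3 libraries labelled wildtype, from *Notch1*+/+; *Nos3*+/+ littermate controls. Each library held RNA pooled from 3 OFTs, 18 OFTs in all. Both are germline knockout lines, kept on a C57/BL6J background. The groups therefore differed at *Notch1* and *Nos3* together, and with no single mutant among the 6 libraries the contributions of these alleles cannot be told apart. The part of each gene that was targeted is not given in the sources used here, and gene-level counts do not separate exons.

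Nitric oxide synthases make nitric oxide from arginine. *Nos3* encodes the endothelial enzyme, *Nos1* the neuronal enzyme and *Nos2* the inducible enzyme. Nitric oxide spreads into neighbouring cells and activates soluble guanylyl cyclase, which produces cGMP. cGMP then acts through protein kinase G, encoded in smooth muscle mainly by *Prkg1*, and is broken down by phosphodiesterases such as the product of *Pde5a*. Endothelial nitric oxide controls vascular tone and contributes to the formation of the cardiac valves.

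Library totals ranged from 34729103 to 44387490 counts. *Notch1*, the receptor gene targeted together with *Nos3*, went against its label: 74.3, 88.2 and 83.6 CPM (counts per 1000000 counts of the library, scaled by TMM factors) in the wildtype replicates 1, 2 and 3 and 155, 161 and 139 CPM in the mutant replicates (log2 fold change 0.89, SE 0.10, edgeR adjusted p = 0.0313). For this reason libraries are called by their labels throughout. The titles and descriptions of the wildtype replicates 2 and 3 gave opposite library numbers, so that either may carry the other's name; both numbers carry the wildtype label. All 10 endothelial markers were detected in every library, 2 had positive fold changes and edgeR called none, and their summed level ranged from 999 to 1328 CPM with the wildtype label and from 1094 to 1205 CPM with the mutant label. The summed myocardial markers did not overlap, at 24198 to 35203 CPM against 16842 to 23365 CPM (without *Myh7* they overlapped, at 16986 to 25196 against 11777 to 17305 CPM), and all 9 were lower with the mutant label, 3 of them past the DESeq2 threshold. The summed mesenchymal markers ran from 2155 to 4099 CPM with the wildtype label, highest in replicate 1, and from 4080 to 5009 CPM with the mutant label, and all 6 had positive fold changes. The summed smooth muscle markers lay at 1851 to 2254 CPM against 1665 to 1844 CPM, with 3 of 6 fold changes positive. In bulk tissue, fewer cells of a type and less RNA per cell cannot be told apart.

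Across all genes, the edgeR quasi-likelihood test, adjusted after Benjamini and Hochberg, called 6 of 28157 genes (adjusted p no higher than 0.05), which is 0.0213 percent, and none of the 10 genes was among them. An unadjusted p under 0.05 was reached by 4522 genes, or 16.1 percent, and by 2 of the 10, *Nos2* and *Nos3*. DESeq2 called 742 of the 18327 genes that it gave an adjusted p, 4.05 percent (2.24 higher and 1.81 lower), and 1 of the 10, which was *Nos3*. With the replicate number of the titles as a block, edgeR called 1577 genes, 5.6 percent (3.18 higher and 2.42 lower), and again 1 of the 10, *Nos3*. With the numbers that the descriptions imply, the block left 78 genes called, 0.277 percent, *Nos3* among them. A correction of each library for GC content and length also left *Nos3* as the only call of the 10, with 0.032 percent of all genes called. Of the 10 genes, 6 had a positive and 4 a negative fold change, with a median log2 fold change of 0.09 against 0.01 over all genes tested. The CPM values of the 2 groups did not overlap for *Nos2*, *Nos3* and *Gch1*, 3 of 10, beside 19.7 percent of all genes tested.

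**Figure D1:**
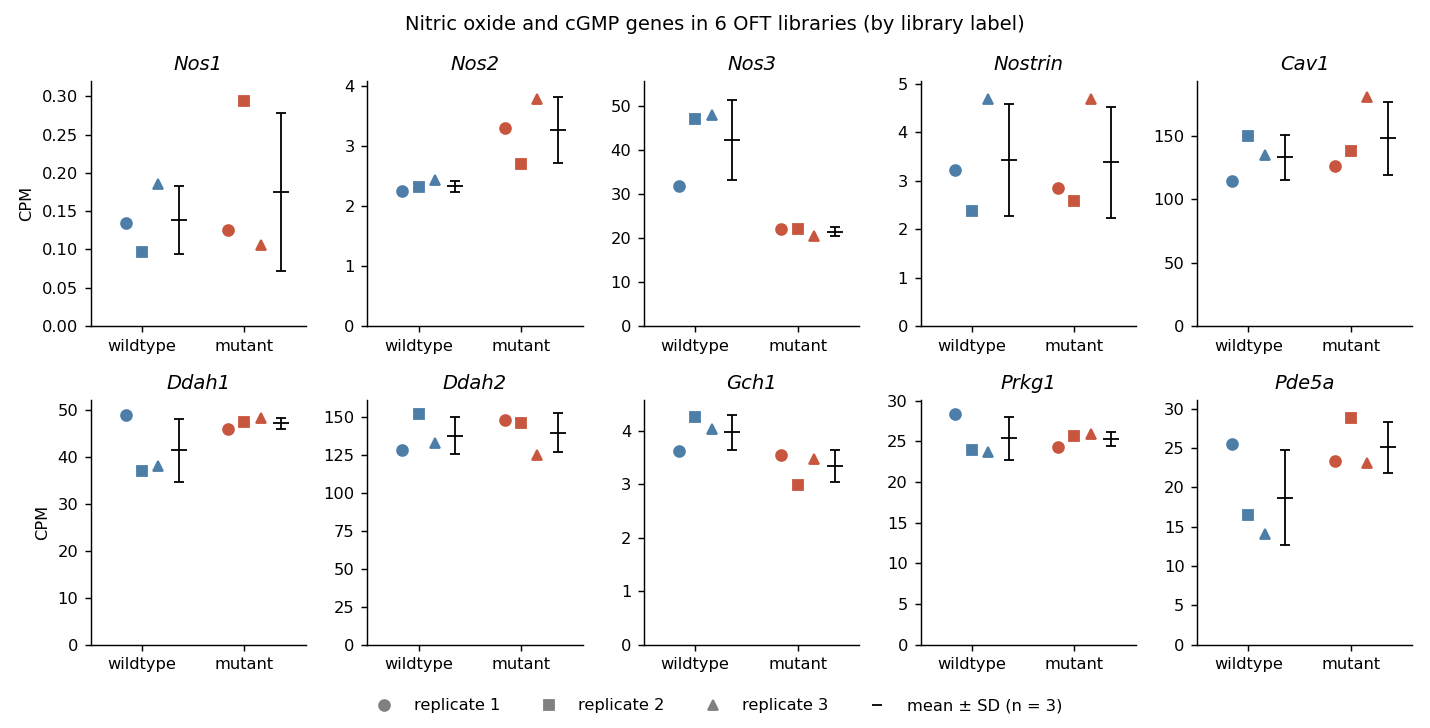
CPM of the 10 genes in each of the 6 OFT libraries, by library label, with marker shapes for the replicate number and black bars for the mean ± SD (n = 3). The *Nos3* points of the libraries labelled mutant sit between 20.4 and 22.1 CPM, below the 31.8 to 48.1 CPM of those labelled wildtype, whereas the points of *Prkg1*, *Ddah2* and *Nostrin* interleave.

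*Nos3* lies on chromosome 5 of mm10 (24364810 to 24384474, plus strand) and has 26 exons with 4132 exonic bases. Its annotated exons are not its own alone: 10 of them share 1040 bases with *Gm15587*, an antisense RNA gene on the opposite strand, and its end shares 294 bases with *Atg9b*, also on the opposite strand. Together 32.3 percent of the exonic bases of *Nos3* are shared. The libraries were made with a stranded kit, but whether the counting used the strand is not given in the sources used here, so that reads from shared bases cannot be assigned with certainty. Exons 9, 12 and 18 are printed as examples of coding exons shared in part or as a whole. Exons 2, 3, 4, 5, 6 and 14 are also shared with *Gm15587* over their whole length, and exon 25 in part. The sequences are those of the *Nos3* transcript in GENCODE M21 on mm10, plus strand, and capitals mark the bases that are also exon of *Gm15587*.
Nos3 exon 9 (chr5:24370788-24370889): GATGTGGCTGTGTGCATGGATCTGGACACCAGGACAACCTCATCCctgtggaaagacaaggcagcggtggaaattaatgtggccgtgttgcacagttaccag
Nos3 exon 12 (chr5:24372127-24372271): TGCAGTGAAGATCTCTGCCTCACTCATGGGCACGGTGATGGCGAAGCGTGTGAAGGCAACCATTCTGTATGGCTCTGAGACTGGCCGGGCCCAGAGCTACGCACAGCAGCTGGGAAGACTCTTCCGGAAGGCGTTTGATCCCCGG
Nos3 exon 18 (chr5:24379949-24380027): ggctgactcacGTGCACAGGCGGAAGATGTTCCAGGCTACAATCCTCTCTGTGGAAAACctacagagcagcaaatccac
Exon 12 is shared over its whole 145 bases, exon 9 over 45 of 102 bases and exon 18 over 48 of 79 bases.

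**Figure D2:**
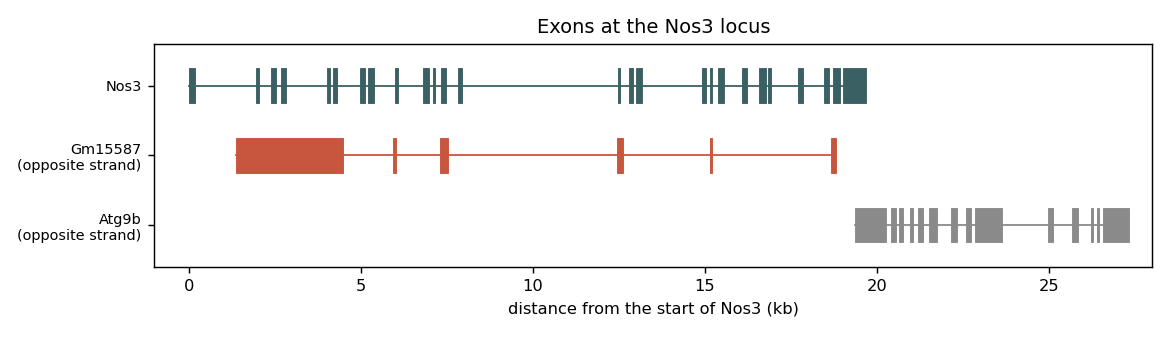
Exons (boxes) of *Nos3* and of the 2 genes annotated on the opposite strand, by distance from the start of *Nos3* in kb, drawn to scale. Exons of *Gm15587* lie across 10 of the 26 *Nos3* exons, and *Atg9b* meets only the end of *Nos3*.

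Confusion between the synthases themselves is limited by their sequences. The reads were 50 bases long, and the longest run of identical bases between the reference transcripts was 23 bases for *Nos1* and *Nos3*, 22 for *Nos2* and *Nos3* and 20 for *Nos1* and *Nos2*. These runs, all within coding sequence, were as follows, in capitals over the whole run because every base is shared.
Nos1 and Nos3: TGCAGTACCAGCCAGGGGACCAC
Nos2 and Nos3: ATGGCCGCTTTGATGTGCTGCC
Nos1 and Nos2: GGCAGGATCCAGTGGTCCAA
No read of full length could therefore match a pair of these transcripts without a mismatch.

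*Nos3* was counted at 31.8, 47.2 and 48.1 CPM in the wildtype replicates 1, 2 and 3 and at 22.1, 22 and 20.4 CPM in the mutant replicates. The groups did not overlap: every library labelled mutant lay below every library labelled wildtype, and the wildtype spread came mostly from replicate 1, the lowest of its group. The group means were 42.3 ± 9.18 and 21.5 ± 0.949 CPM (SD, n = 3 each). The log2 fold change was -0.98 (SE 0.15, 95% interval -1.31 to -0.65), equal to 0.508-fold. By edgeR the unadjusted p was 4.96e-05 and the adjusted p 0.128, which missed the threshold. The call depended on the test. DESeq2, the program with which the study tested, gave an adjusted p of 9.42e-06. The paper counts *Nos3* among the differentially expressed genes that it followed by quantitative RT-PCR, with data not shown. With the replicate block, edgeR gave an adjusted p of 0.00027 by the titles' numbers and 0.0126 by the descriptions'. Without the wildtype replicate 1, edgeR gave an adjusted p of 0.00176 at a log2 fold change of -1.15. That fit called 9.45 percent of all genes. Over 17 alternative settings *Nos3* was called in 6, its adjusted p ranged from 9.42e-06 to 0.575, and its log2 fold change from -1.15 to -0.87. Counts for *Nos3* remained in all libraries labelled mutant, with 769 to 884 reads each, so the gene-level count did not mark these libraries as lacking *Nos3* transcript.

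*Gm15587*, the antisense gene within *Nos3*, was counted at 0.540, 0.217 and 0.277 CPM with the wildtype label and at 3.95, 4.38 and 4.48 CPM with the mutant label. It rose, with a log2 fold change of 3.60 (SE 0.32, edgeR adjusted p = 0.00415), and was one of the genes that edgeR called. The reads behind it numbered 9 to 24 per library labelled wildtype and 158 to 169 per library labelled mutant. It was called in 16 of 17 alternatives, with adjusted p between 9.26e-20 and 0.0849. *Atg9b*, an autophagy gene at the other end, was at 2.02, 3.18 and 2.90 CPM against 3.50, 2.56 and 3.24 CPM, and these groups overlapped (log2 fold change 0.20, edgeR adjusted p = 0.71). How reads were divided between *Nos3* and *Gm15587*, and its part in both differences, was not tested.

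Because *Nos3* is an endothelial gene, its level was also set against the summed level of the endothelial markers in the same library. On the log2 scale, with 0.5 CPM added to both terms, the ratio was -4.95, -4.73 and -4.77 with the wildtype label and -5.61, -5.61 and -5.85 with the mutant label. The groups did not overlap, and the difference was -0.87, or 0.548-fold (two-sided exact permutation p = 0.1, the smallest that 3 against 3 libraries allow). The same difference of log2(CPM + 0.5) without the markers was -0.94. Leaving out any single library kept the difference relative to the markers between -0.93 and -0.79. *Nostrin*, another endothelial gene, gave ratios of -8.07, -8.78 and -8.00 against -8.36, -8.47 and -7.86, which overlapped, and a difference of 0.06 (exact permutation p = 0.9).

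*Nos2*, the inducible synthase, was at 2.25, 2.31 and 2.43 CPM in the libraries labelled wildtype and at 3.30, 2.70 and 3.79 CPM in those labelled mutant. Every library labelled mutant was above every library labelled wildtype, on 79 to 143 reads per library. This gave a log2 fold change of 0.48 (SE 0.21, 95% interval 0.03 to 0.94), with an edgeR unadjusted p of 0.0386 and an adjusted p of 0.291. *Nos2* passed the threshold in none of 17 alternatives (adjusted p 0.211 to 0.683), and its fold change was positive in all of them, 0.36 to 0.69 on the log2 scale. The summed macrophage markers, a cell type known for *Nos2*, were at 61.5 to 95 CPM with the wildtype label and 66.4 to 76.8 CPM with the mutant label, and overlapped.

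*Nos1*, the neuronal synthase, was close to the limit of detection, with 6, 4 and 6 reads in the libraries labelled wildtype and 5, 11 and 4 reads in those labelled mutant. The groups overlapped, with only the mutant replicate 2 above the rest. Its log2 fold change of 0.34 had a 95% interval of -1.26 to 1.93 (edgeR adjusted p = 0.857), so that a difference of the size seen for *Nos3* was not detectable at this depth. The summed neuronal markers were at 10.8 to 22.9 CPM with the wildtype label and at 24.5 to 33.7 CPM with the mutant label, with 5 of 6 fold changes positive. Without *Tubb3*, the most abundant, the sums overlapped, at 6.29 to 15.6 against 9.89 to 15.4 CPM.

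Per length, *Nos3* made up most synthase RNA in every library. It accounted for 93.6, 95.5 and 95.3 percent of the summed level of the 3 synthases, in CPM per kb of exon, with the wildtype label and for 87.6, 89.3 and 85.0 percent with the mutant label. *Nos2* accounted for 6.21, 4.38 and 4.52 percent against 12.2, 10.3 and 14.8 percent. Both shares separated the groups, and that of *Nos1* was at most 0.442 percent in every library. The summed level was 8.21, 12 and 12.2 CPM per kb with the wildtype label and 6.10, 5.96 and 5.81 CPM per kb with the mutant label. The ratio of *Nos2* to *Nos3* was 2.53-fold higher in the libraries labelled mutant, 1.34 on the log2 scale (two-sided exact permutation p = 0.1, the smallest possible here). This ratio follows from the values of the 2 genes and is no separate evidence.

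**Figure D3:**
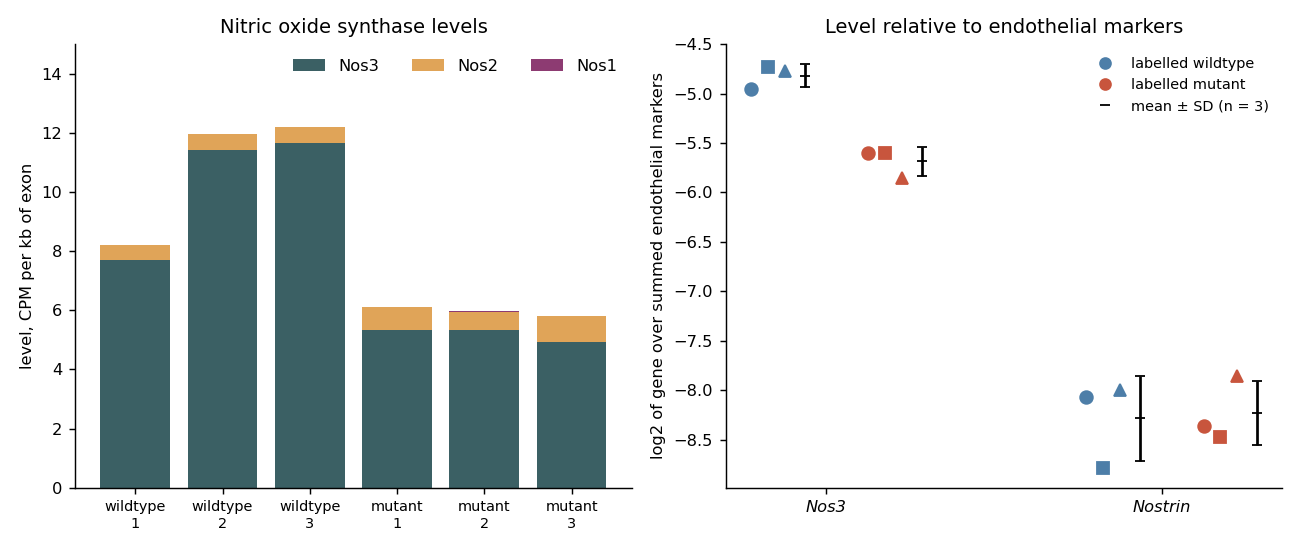
Left, level of the 3 nitric oxide synthases in CPM per kb of exon, stacked for each library. Right, log2 of *Nos3* or *Nostrin* over the summed endothelial markers, with the mean ± SD (n = 3). *Nos3* forms most of every bar, the bars labelled mutant reach 5.81 to 6.10 CPM per kb, and only *Nos3* separates the groups on the right.

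*Nostrin* encodes an adaptor that binds the endothelial synthase and directs its trafficking. It was at 3.22, 2.38 and 4.68 CPM with the wildtype label and 2.85, 2.59 and 4.69 CPM with the mutant label. The libraries interleaved, with replicate 3 highest and replicate 2 lowest in both groups. Between the labels the log2 fold change was -0.02 with a 95% interval of -0.67 to 0.64 (edgeR adjusted p = 0.989).

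*Cav1* encodes caveolin 1, the coat protein of caveolae, which binds the endothelial synthase and holds it inactive. Its CPM was 114, 149 and 135 with the wildtype label and 126, 138 and 181 with the mutant label. These groups overlapped, and the mutant replicate 3 was the highest of all. The log2 fold change of 0.16 (95% interval -0.17 to 0.48, edgeR adjusted p = 0.633) became -0.01 without that library.

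*Ddah1* and *Ddah2* encode the hydrolases that remove asymmetric dimethylarginine, an inhibitor of the synthases. *Ddah1* was at 49.1, 37.0 and 38.1 CPM with the wildtype label and at 45.9, 47.5 and 48.2 CPM with the mutant label. The groups overlapped only through the wildtype replicate 1, the highest of all 6. The log2 fold change was 0.19 (95% interval -0.07 to 0.45, edgeR adjusted p = 0.45), and without that library 0.33 (edgeR adjusted p = 0.0377), in a fit that called 9.45 percent of all genes. *Ddah2* was at 129, 152 and 133 CPM against 148, 146 and 125 CPM, with no separation. Its log2 fold change was 0.02, and the interval of -0.22 to 0.26 was the narrowest of the 10 after that of *Prkg1* (edgeR adjusted p = 0.95).

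*Gch1* encodes GTP cyclohydrolase, the first and rate-limiting enzyme of the synthesis of tetrahydrobiopterin, a cofactor that the synthases need. It was at 3.62, 4.26 and 4.04 CPM with the wildtype label and at 3.55, 2.99 and 3.47 CPM with the mutant label. The groups did not overlap, but the highest library labelled mutant and the lowest labelled wildtype differed by less than the spread within either group. This corresponded to a log2 fold change of -0.25 (95% interval -0.64 to 0.14, edgeR adjusted p = 0.513), and it was negative in all 17 alternatives and called in none.

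*Prkg1*, the cGMP-dependent kinase gene, was at 28.4, 24.0 and 23.7 CPM with the wildtype label and at 24.3, 25.7 and 25.9 CPM with the mutant label. All libraries labelled mutant lay within the range of the wildtype label. The means were 25.4 ± 2.65 and 25.3 ± 0.86 CPM (SD, n = 3 each), and the 95% interval of the log2 fold change ran from -0.24 to 0.23 (edgeR adjusted p = 0.992).

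*Pde5a*, which encodes the cGMP-specific phosphodiesterase of smooth muscle, was at 25.5, 16.5 and 14.1 CPM with the wildtype label and at 23.3, 28.9 and 23.1 CPM with the mutant label. As for *Ddah1*, only the wildtype replicate 1 lay among the libraries of the other label. The log2 fold change was 0.42 (SE 0.20, 95% interval -0.01 to 0.85, edgeR adjusted p = 0.323). Without the wildtype replicate 1 it was 0.71 (edgeR adjusted p = 0.0214), in a fit that called 9.45 percent of all genes. The summed mesenchymal markers stood in the same order among the wildtype replicates 1, 2 and 3, at 4099, 2963 and 2155 CPM, and their part in the difference of *Pde5a* was not tested. With the mean of the myocardial markers as a covariate the log2 fold change was 0.12, and the part of these markers was not tested either. The ratio of *Pde5a* to *Prkg1* differed by 0.45 on the log2 scale between the labels, with overlapping groups (two-sided exact permutation p = 0.2).

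**Figure D4:**
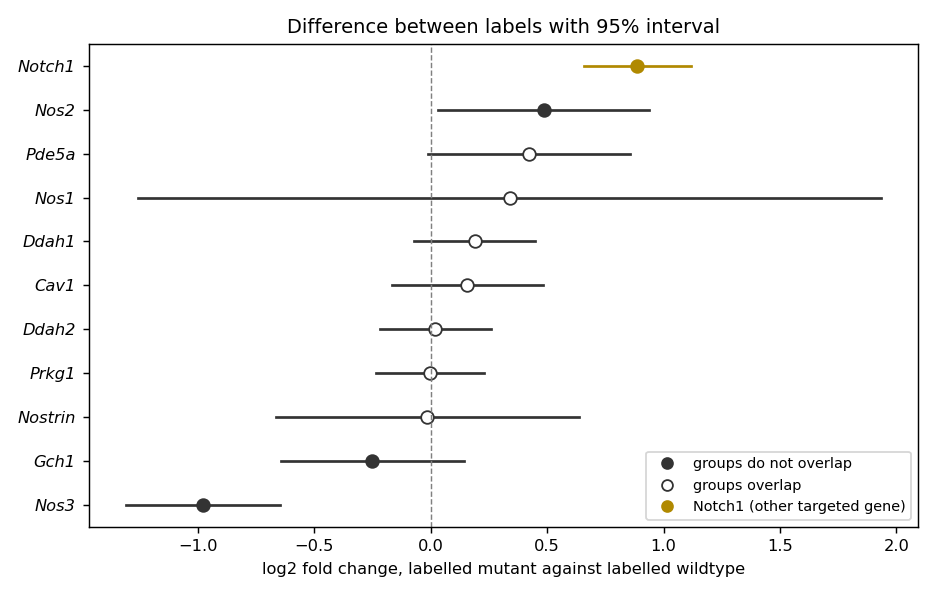
Log2 fold change (libraries labelled mutant against labelled wildtype) with its 95% interval, derived from the edgeR F statistic, for the 10 genes and for *Notch1*. Filled points mark genes whose CPM did not overlap between groups. *Nos3* (-0.98) and *Nos2* (0.48) are the genes of the 10 whose interval leaves out 0, and *Nos1* has the widest interval.

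Levels of different genes were compared as CPM per kb of exon over all 6 libraries. *Ddah2* was highest at 87.2 ± 7.12 (SD, n = 6), followed by *Cav1* at 40.8 ± 6.65, *Ddah1* at 11.1 ± 1.34 and *Nos3* at 7.73 ± 3.1. *Prkg1* (2.33 ± 0.162), *Pde5a* (2.23 ± 0.568) and *Nostrin* (1.8 ± 0.548) formed a middle group. *Nos2* at 0.634 ± 0.140, *Gch1* at 0.585 ± 0.0717 and *Nos1* at 0.0141 ± 0.00661 were lowest. The ranges of neighbours overlapped for *Ddah1* and *Nos3*, for *Prkg1* and *Pde5a*, for *Pde5a* and *Nostrin*, and for *Nos2* and *Gch1*, so their order is not resolved. *Ddah1* exceeded *Nos3* in all 3 libraries labelled mutant and in the wildtype replicate 1, 4 of 6. Among all genes tested, *Ddah2* stood at the 96.4th percentile per length, *Nos3* at the 75.2th and *Nos1* at the 3rd percentile.

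The wider pathway list held 50 genes that could be tested, and edgeR called none of them, with 12 at an unadjusted p under 0.05. Fold changes were positive for 19 and negative for 31, with a median of -0.10 on the log2 scale, beside 0.01 for all genes and -0.03 for those averaging 1 CPM or more. The groups did not overlap for 11 of 50, or 22 percent, close to the 19.7 percent of all genes. DESeq2 called 5 (3 higher, 2 lower) and edgeR with the replicate block 6 (3 higher, 3 lower), 10 and 12 percent of the list beside 4.05 and 5.6 percent of all genes. These shares have unlike bases. The 4.05 percent is over the 18327 genes that DESeq2 gave an adjusted p, and some of the 50 had none. An average of 1 CPM or more was reached by 42 of the 50, beside 16655 of all 28157 genes tested. The block by the descriptions' numbers called 0 of the 50, and 0.277 percent of all genes.

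**Figure D5:**
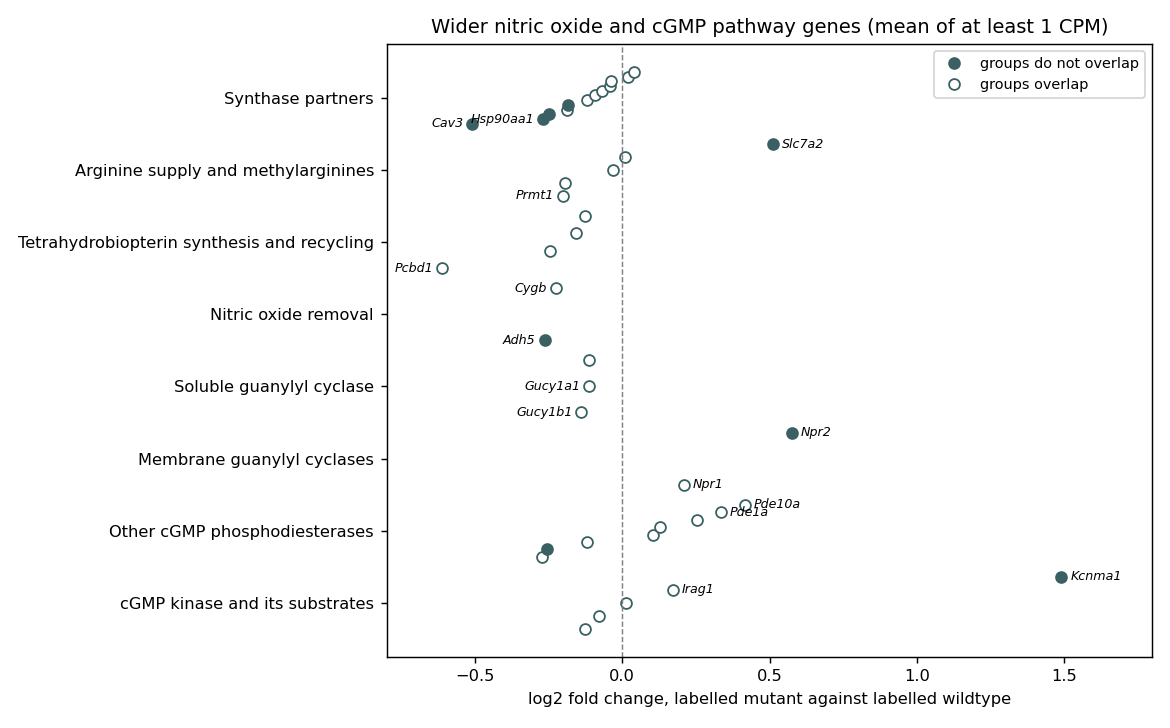
Log2 fold change of the wider pathway genes that averaged 1 CPM or more, arranged by role; filled points mark genes whose CPM did not overlap between groups, and names are given for genes with large changes in each role. The tetrahydrobiopterin genes shown all lie below 0, and *Kcnma1* lies farthest to the right at 1.49.

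Among 12 partners of the synthases, such as calmodulins, heat shock protein 90 and caveolins, 10 had negative fold changes, with a median of -0.11 on the log2 scale. *Cav3*, the muscle caveolin, was at 74.5, 99 and 101 CPM against 66.2, 58.0 and 68.6 CPM, with no overlap. Its log2 fold change of -0.51 missed the edgeR threshold (adjusted p = 0.187) and passed with DESeq2 (adjusted p = 0.0222) and with the replicate block of the titles in edgeR (adjusted p = 0.0149), but not with that of the descriptions (adjusted p = 0.129). The myocardial markers were lower in the same libraries, and with their mean as a covariate the log2 fold change of *Cav3* was -0.33 (edgeR adjusted p = 0.734). Because these markers themselves differed between the labels, such a fit cannot separate them from the label. Their part in the difference of *Cav3* was not tested. *Hsp90aa1*, which encodes an inducible heat shock protein 90 that assists the endothelial synthase, had a log2 fold change of -0.27 (edgeR adjusted p = 0.275).

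Of 8 genes for arginine supply and methylarginines, 3 had positive and 5 negative fold changes. *Slc7a2*, a cationic amino acid transporter that brings arginine into cells, was at 12.3, 9.56 and 10.2 CPM with the wildtype label and at 14, 16.3 and 15.4 CPM with the mutant label, without overlap. This gave a log2 fold change of 0.51 (edgeR adjusted p = 0.194, DESeq2 adjusted p = 0.0398, edgeR with the replicate block adjusted p = 0.0335 by the titles' numbers and 0.171 by the descriptions'). *Prmt1*, the main enzyme behind asymmetric dimethylarginine, had a log2 fold change of -0.20 with overlapping groups (edgeR adjusted p = 0.357). *Arg1* and *Arg2*, the arginases, were below 0.25 CPM in every library.

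All 6 genes for tetrahydrobiopterin synthesis and recycling other than *Gch1* had negative fold changes, with a median of -0.34 on the log2 scale. *Pcbd1*, a recycling dehydratase, was at 13.2, 20.2 and 25 CPM against 11.6, 10.5 and 16 CPM, so that the groups overlapped through the wildtype replicate 1. The difference was -0.61 on the log2 scale (edgeR adjusted p = 0.245, with the replicate block 0.0158 by the titles' numbers and 0.176 by the descriptions', DESeq2 adjusted p = 0.101). No gene of this role was called by edgeR without the block when all libraries were used. Without the wildtype replicate 1, in a fit that called 9.45 percent of all genes, some were, among them *Pcbd1* (log2 fold change -0.83, edgeR adjusted p = 0.0277).

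Both genes that remove nitric oxide or its adducts had negative fold changes that missed the threshold. *Adh5*, which encodes S-nitrosoglutathione reductase, was at 122, 148 and 142 CPM against 113, 111 and 120 CPM, without overlap (log2 fold change -0.26, edgeR adjusted p = 0.264). *Cygb*, cytoglobin, overlapped between the groups (log2 fold change -0.23, edgeR adjusted p = 0.677).

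The receptor for nitric oxide differed little. *Gucy1a1* and *Gucy1b1*, the main subunits of soluble guanylyl cyclase, were at 74.8, 88.8 and 81.9 CPM against 66.0, 78.8 and 82.2 CPM and at 85.0, 87.5 and 94.1 CPM against 76.3, 79.9 and 85.8 CPM. Both overlapped between the labels, and the 95% intervals of their log2 fold changes were -0.36 to 0.13 and -0.35 to 0.07. The log2 ratio of these subunits differed by 0.02 between the labels (two-sided exact permutation p = 1).

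Among the membrane guanylyl cyclases, which make cGMP in response to natriuretic peptides and not to nitric oxide, *Npr2* was at 29.9, 20.4 and 19.0 CPM with the wildtype label and at 36.3, 36.3 and 30.8 CPM with the mutant label. All libraries labelled mutant were higher, although the wildtype replicate 1 came within 1 CPM of the lowest of them. The log2 fold change was 0.58 (edgeR adjusted p = 0.194, DESeq2 adjusted p = 0.0406, edgeR with the replicate block adjusted p = 0.00544 by the titles' numbers and 0.0854 by the descriptions'). Like *Pde5a*, *Npr2* followed the order of the mesenchymal markers among the wildtype replicates. So few libraries can share an order by chance, and the part of these markers was not tested. *Npr1* overlapped between the labels (log2 fold change 0.21, edgeR adjusted p = 0.479).

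The role of other cGMP phosphodiesterases held 10 genes taken by name, not by a measured activity. Of these, 7 had positive fold changes, with a median of 0.19 on the log2 scale, and edgeR and DESeq2 called none. *Pde10a* (0.42) and *Pde1a* (0.33) had the largest log2 fold changes among those averaging 1 CPM or more, both with overlapping groups (edgeR adjusted p = 0.434 and 0.541). *Pde1a*, a calcium- and calmodulin-stimulated enzyme, was at 58.1, 38.7 and 23.9 CPM with the wildtype label and at 52.4, 58.0 and 42.1 CPM with the mutant label. Its wildtype values again stood in the order of the mesenchymal markers, whose part was not tested. *Pde2a* shares 64.3 percent of its exonic bases with another gene and had 1 to 6 reads per library, so its counts are uncertain.

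Among 6 genes for other cGMP kinases and kinase substrates, *Kcnma1*, the large-conductance calcium-activated potassium channel that relaxes smooth muscle, was at 0.765, 0.385 and 0.524 CPM with the wildtype label and at 1.52, 1.6 and 1.62 CPM with the mutant label. The groups did not overlap. Its log2 fold change of 1.49 (SE 0.33) had an edgeR adjusted p of 0.18, a DESeq2 adjusted p of 0.0165 and, in edgeR with the replicate block, an adjusted p of 0.0117 by the titles' numbers and 0.0931 by the descriptions'. *Irag1*, listed as *Mrvi1* in the annotation and encoding a kinase substrate at the calcium store, overlapped between the labels (log2 fold change 0.17, edgeR adjusted p = 0.526).

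The 5 genes whose profile over the 6 libraries was most like that of *Nos3* were *Gm6749*, *Gm10182*, *Gm7986*, *Gm9320* and *Gm6378*, with Pearson r from 0.9865 to 0.9936 among 13089 genes averaging 5 CPM or more. All 5 are annotated as processed pseudogenes, copies of other transcripts whose read counts are uncertain. Their log2 fold changes were -0.39 to -0.23, smaller than that of *Nos3*, and edgeR called none. With 6 libraries that share their group structure, this is a description of the profile alone. By Spearman's rho, 33 genes tied with *Nos3* at the highest value of 1, and of the 5 only *Gm10182* was among them.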

How the data were processed

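Per the labels and the study's methods, the authors pooled 3 OFTs per library, made stranded total RNA libraries after ribosomal RNA depletion, sequenced paired reads of 50 bases, aligned them with TopHat2 2.1.0 to mm10 and deposited raw counts of exonic reads per gene, made with GenomicAlignments. The submitters' processing notes also name Bowtie2 and DESeq2 1.26.0. The deposited counts were used as they stand. Genes with more than 5 reads over all libraries were kept; 620 of 28777 were left out. Counts were tested with edgeR 4.0.16 (TMM factors, quasi-likelihood F-test, Benjamini-Hochberg over all genes tested, adjusted p at most 0.05), with DESeq2 1.42.0 and limma-voom 3.58.1 as alternatives. CPM used the TMM factors. Symbols and exon lengths came from GENCODE M21 (28723 genes matched, 54 not). Single ratios were compared by two-sided exact permutation tests over all 20 assignments, which cannot go below 0.1.

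The genes and lists were chosen with earlier results of these data known. The genes named were the 10 members, *Notch1*, genes whose exons overlap a member, the 2 pathway genes per role with the largest absolute change among those averaging 1 CPM or more, and the 5 genes most like *Nos3*. The wildtype column of replicates 2 and 3 was placed by the number in the sample title. Deviations from the group mean correlated at 0.101, 0.152 and 0.458 for libraries with the same title number, over 16655 genes. The title numbers were taken to pair the libraries. By the descriptions, the wildtype replicates 2 and 3 pair with the mutant replicates 3 and 2, at -0.118 and -0.487. No source says what a number marks, and the wildtype replicate 1 correlated better with the mutant replicate 2 (0.318). The correlations came from the same counts that were then tested with the block, so a call with it is no separate support. The replicates were separate pools of embryos. On simulated counts for this comparison, with 28777 genes, edgeR recovered 192 of 200 changed genes with 21 false calls. The changes had set sizes in well-counted genes, so this is not the power for the genes described here. With an added simulated replicate effect edgeR recovered 0 of 200 without the block and 200 of 200 with it. That run used a reduced spread and a fully paired effect of a chosen size. It therefore does not show that these data need the block. The fit without the block was kept as the main test because the study used none. The study tested with DESeq2, which was run here as an alternative, and not with edgeR. Depth was 34729103 to 44387490 counts per library, so that 3 counts equal 0.0675 to 0.0924 CPM; this covers counting error only. A gene of the pathway list is counted in the list but not reported here by name. The overlapping genes *Gm26995* and *Gm13568* were not analysed here.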

Additional observations from a re-analysis of the deposited data

How the results depend on the processing

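Leaving out each library in turn gave 1 to 2593 called genes against 6 with all libraries, 0 to 3 of the 10 genes and 0 to 10 of the 50 pathway genes; the highest of each came without the wildtype replicate 1, and the cause was not tested. Called genes numbered 742 with DESeq2, 1577 with the replicate block of the titles, 78 with that of the descriptions and 2146 with the titles' block and a GC and length correction. Of the 10 genes, 1 was called with DESeq2, either block, the correction alone and the correction with the block, each time *Nos3*. Its log2 fold change was -0.98 with DESeq2, -0.95 and -0.96 with the replicate block of titles and descriptions, -1.08 with the correction and -1.07 with both; without 1 library it ran from -1.15 to -0.88. Of the 50 pathway genes 5 were called with DESeq2, 6 with the replicate block of the titles, 0 with that of the descriptions and 9 with the block and correction. The replicate block of the titles changed the calls of *Nos3*, *Cav3*, *Slc7a2*, *Pcbd1*, *Npr2* and *Kcnma1* and no other call among the members and the pathway genes named here.

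Fold changes near 0 changed sign. *Nostrin* became 0.0091 with limma-voom, 0.089 with library size only, 0.10 with the GC and length correction, 0.11 with the correction and block and 0.53 with the myocardial covariate. *Prkg1* became 0.10 with library size only, 0.0025 with filterByExpr, and 0.00041 and 0.00095 with the replicate blocks of titles and descriptions. With the myocardial covariate *Nos1* became -0.068, *Ddah2* -0.087, *Cygb* 0.10 and *Pde1a* -0.14. Without 1 library the log2 fold changes ran from -0.24 to 0.59 for *Nos1*, -0.33 to 0.27 for *Nostrin*, -0.010 to 0.26 for *Cav1*, 0.11 to 0.33 for *Ddah1*, -0.028 to 0.095 for *Ddah2*, -0.050 to 0.087 for *Prkg1*, 0.26 to 0.71 for *Pde5a* and -0.40 to 0.028 for *Cygb*, and the endothelial ratio of *Nostrin* from -0.19 to 0.20. *Notch1* lost its call in 6 of 17 alternatives, with adjusted p up to 0.337. filterByExpr left out *Nos1*. Library size alone moved the median of all genes to 0.11. In CPM without length 42 of 45 pairs of the 10 genes kept their order, and by Spearman's rho, with 33 genes tied at the highest value, 1 of the 5 genes most like *Nos3* was shared. Depth limits *Nos1* most.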

Other observations

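Several low genes of the pathway had values that rested on few reads. *Gucy1b2*, a minor subunit of soluble guanylyl cyclase, was at 0.112, 0.120 and 0.0924 CPM with the wildtype label and at 0.125, 0.640 and 0.265 CPM with the mutant label; its groups did not overlap (edgeR adjusted p = 0.304). *Gchfr*, which encodes the feedback regulator of GTP cyclohydrolase, was at 0.697, 1.54 and 1.29 CPM against 0.725, 0.587 and 0.530 CPM (edgeR adjusted p = 0.272). *Agxt2*, a mitochondrial aminotransferase that also metabolises asymmetric dimethylarginine, had counts in the wildtype replicate 2 only. These 3 genes were chosen after their values were seen.

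*4930447N08Rik*, whose exons share 55 bases with *Pde5a* on the opposite strand, had 0 reads in all 3 libraries labelled wildtype and 4, 2 and 1 reads in those labelled mutant. *0610009E02Rik*, which overlaps the end of *Notch1*, was at 0.517, 0.169 and 0.647 CPM with the wildtype label and at 0.50, 0.640 and 0.477 CPM with the mutant label, and these groups overlapped.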
